A study of Homo sapiens with 4 samples.

Results

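A set of 26 genes was low in a control HEK293 line and on in 2 clones of the same line that express the autoimmune regulator AIRE. They were chosen from deposited bead intensities by a rule on raw values: a named probe under 66 on all 3 control (NC) arrays and over 70 on all 3 arrays of each clone, in a gene with no other probe over 70 on any NC array. Of 24782 named probes, for 19304 genes, 44 met the thresholds. Of these, 16 were for genes left out by name (AIRE itself, interferon-induced and some tissue-restricted genes), and UBE2L6 and RGMB dropped out because a further probe of each exceeded 70 in NC. A further 9 probes that met the thresholds had no gene name and were not used. The rule leans on single arrays: without AIRE2 replicate 2 it would take 57 genes, and without NC replicate 1, 45. The 66 and 70 lie around the upper edge of background: the mean of the negative-control beads, inferred from the detection p-values, was 52.9 to 57.9 per array, and a probe counted as detected, at a detection p under 0.01, above 66.3 to 72.1. All 26 genes were detected on all 6 clone arrays and on no NC array, so "on" means a step across the detection limit.

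HEK293 is a human embryonic kidney cell line, and 4 stable derivatives of it were profiled on 12 arrays, 3 per line, from 3 independent experiments. AIRE-D312A expresses AIRE with the D312A mutation, which lies in the first of its PHD fingers; AIRE1 and AIRE2 are separate clone-derived lines with AIRE not described as mutated; NC expresses yellow fluorescent protein. All 4 proteins are driven by the cytomegalovirus immediate-early promoter. Each condition is 1 line, so p-values reflect only how repeat experiments on a line vary, and what the transgene does cannot be told apart from what else distinguishes the lines.

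In the thymus, AIRE acts in the nuclei of medullary epithelial cells, which through it transcribe many genes of other tissues, so that developing T cells meet those antigens. Its first PHD finger, a zinc-binding module, binds the tail of histone H3 when lysine 4 carries no methyl group, and the D312A exchange of aspartate for alanine is known to weaken that binding. The AIRE-D312A arrays played no part in choosing the 26 genes, and how these genes read there is the main comparison. Choosing low NC and high clone values by itself favours AIRE-D312A values that lie between them. The genes passed the filter on low values through the clones, where all 26 were high by choice.

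Mean intensity per array was 245.6 to 324.3, and 15823 to 17288 of 48701 probes were detected on an array; the detection limit of AIRE-D312A replicate 3 was predicted from the other arrays. Of 10 marker genes fixed for HEK293, 9 were detected on all arrays of every line, and PAX2 on none. Their summed signal above background was 8976 to 10536 in AIRE-D312A, 6147 to 7776 in AIRE1, 7768 to 12194 in AIRE2 and 11901 to 15872 in NC. VIM, the brightest of these markers, weighed most in this sum. It averaged 5283.1 in AIRE-D312A, 2766.9 in AIRE1, 5788.3 in AIRE2 and 7057.8 in NC. INA went the other way, with means of 319.5, 296.3, 356.7 and 164.5 in the same order. GATA3 averaged 100.8 in AIRE2 and 100.5 in NC. The sum thus does not show that these markers differed together. Of 10 markers of thymic medullary epithelium, 7 were detected on no array, FOXN1, KRT5 and KRT14 among them; TNFRSF11A was detected on all arrays, FEZF2 on 1 AIRE-D312A array, 2 AIRE1 arrays and all of AIRE2 and NC, and CD40 on 2 AIRE1 arrays. The summed signal of that list, near background, was 51.7 to 56.0 in AIRE-D312A and 52.1 to 53.8 in NC. It was 63.9 to 75.3 in AIRE1 and 70.9 to 80.6 in AIRE2, so both clones lay above the other lines without overlap. Single markers did not all follow the sum. CD40 averaged 57.3 in AIRE-D312A, 69.4 in AIRE1, 59.7 in AIRE2 and 56.4 in NC. FEZF2 averaged 68.9, 67.9, 79.7 and 72.7 in the same order. The part of this list in the values of the 26 genes was not tested. Of 4 hepatocyte markers ALB and TTR were detected on no array, SERPINA1 on all and APOA1 on 3 AIRE-D312A, 2 AIRE1, 3 AIRE2 and 0 NC arrays, and their list summed to 53.9 to 64.5 in AIRE-D312A, 58.9 to 73.6 in AIRE1, 56.5 to 69.8 in AIRE2 and 27.9 to 69.1 in NC. The AIRE probe read 331.5, 331.8 and 412.2 in AIRE-D312A, 531.5, 518.5 and 576.1 in AIRE1, 469.1, 288.8 and 486.2 in AIRE2, against 58.5, 63.6 and 58.6 in NC; it was on in all 3 AIRE lines and at background in NC. In bulk RNA, fewer cells that express a gene and less RNA per cell cannot be told apart, here or for any gene below.

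The clone and NC values, which the rule used, are a description. Clone means ran from 72.5 for MICALCL to 167.1 for LY6G6D, and 11 of the 26 lay under 90. Measured differences on the normalised log2 scale had a median of 1.22 for AIRE1 minus NC and 1.23 for AIRE2 minus NC, against 0.01 and 0.00 over all 11949 genes tested. With NC set at its detection limit, the medians are at least 0.68 and 0.78. At an adjusted p under 0.05 (limma, Benjamini-Hochberg over all genes), 25 of 26 were called higher in AIRE1 and 26 of 26 in AIRE2, where 5.21% and 5.93% of all genes were; the rule fixes these counts. PROM1 was the gene not called in AIRE1 (adjusted p = 0.0968; 0.0216 with the replicate block).

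**Figure D1:**
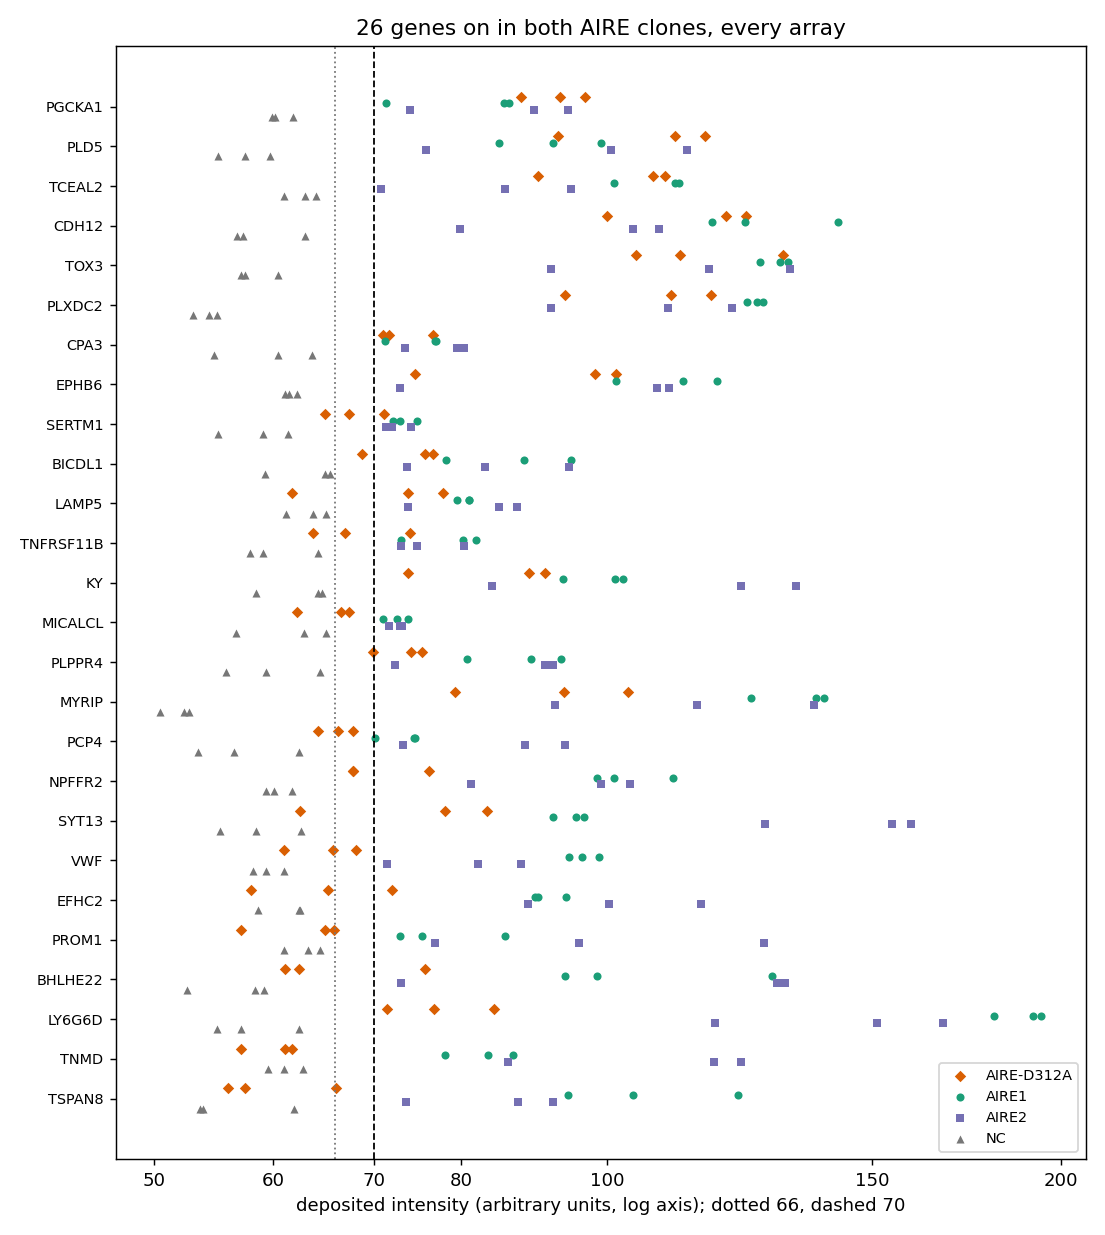
Deposited intensity (arbitrary units, log axis) of each of the 26 genes on every array, with 3 points per line, genes ordered from the highest to the lowest AIRE-D312A signal relative to the clones. AIRE-D312A points (diamonds) lie among the clone points (circles and squares) at the top and among the NC points (triangles) at the bottom; the dotted and dashed lines mark 66 and 70.

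In AIRE-D312A the 26 genes ranged from the clone level down to background. Raw values exceeded 70 on all 3 AIRE-D312A arrays for 11 genes (42.3%): CDH12, CPA3, EPHB6, KY, LY6G6D, MYRIP, PGCKA1, PLD5, PLXDC2, TCEAL2 and TOX3. For 9 genes 1 or 2 arrays did, and for MICALCL, PCP4, PROM1, TNMD, TSPAN8 and VWF none did. The 70 lies below the detection limits of AIRE-D312A replicates 1 and 3 (71.0 and 71.5) and above that of replicate 2 (66.3). By detection, 12 of the 26 genes were on across all 3 AIRE-D312A arrays, and the same 6 on none. BICDL1 and PLPPR4 were detected on all 3, and CPA3 on 2. Among the 8441 named probes under 66 on all NC arrays, 0.249% exceeded 70 on all 3 AIRE-D312A arrays. Of the 5 genes over 70 on all AIRE1 arrays and under 66 on all NC and AIRE2 arrays, 0 did so. Of the 6 with AIRE1 and AIRE2 exchanged, 1 did. Genes with values between these limits in the other clone are in neither group, and these small groups were not tested against each other. Both groups were also dimmer. The median of gene means was 75.7 in AIRE1 for the 5 and 82.8 in AIRE2 for the 6. For the 26 it was 93.3 in AIRE1 and 95.5 in AIRE2. Of the 16 genes that met the rule with AIRE-D312A in place of the clones, 14 were over 70 on all AIRE1 arrays. On all AIRE2 arrays 12 were, and on all arrays of both clones 11. Among all 8441 named probes under 66 in NC, 44 exceeded 70 on all arrays of both clones, genes left out by name included. The shares for each clone alone were not computed.

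After subtraction of each array's negative-control mean, the AIRE-D312A signal was 9.4% (TSPAN8) to 133.2% (PGCKA1) of the clone signal, with a median of 56.6%. It was over 100% for PGCKA1, PLD5, TCEAL2 and CDH12. It was under 35% for 9 genes, namely TSPAN8, TNMD, LY6G6D, BHLHE22, PROM1, EFHC2, VWF, SYT13 and NPFFR2. LY6G6D is in both lists above: it was over 70 on every AIRE-D312A array and still at 19.2% of its clone signal.

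**Figure D2:**
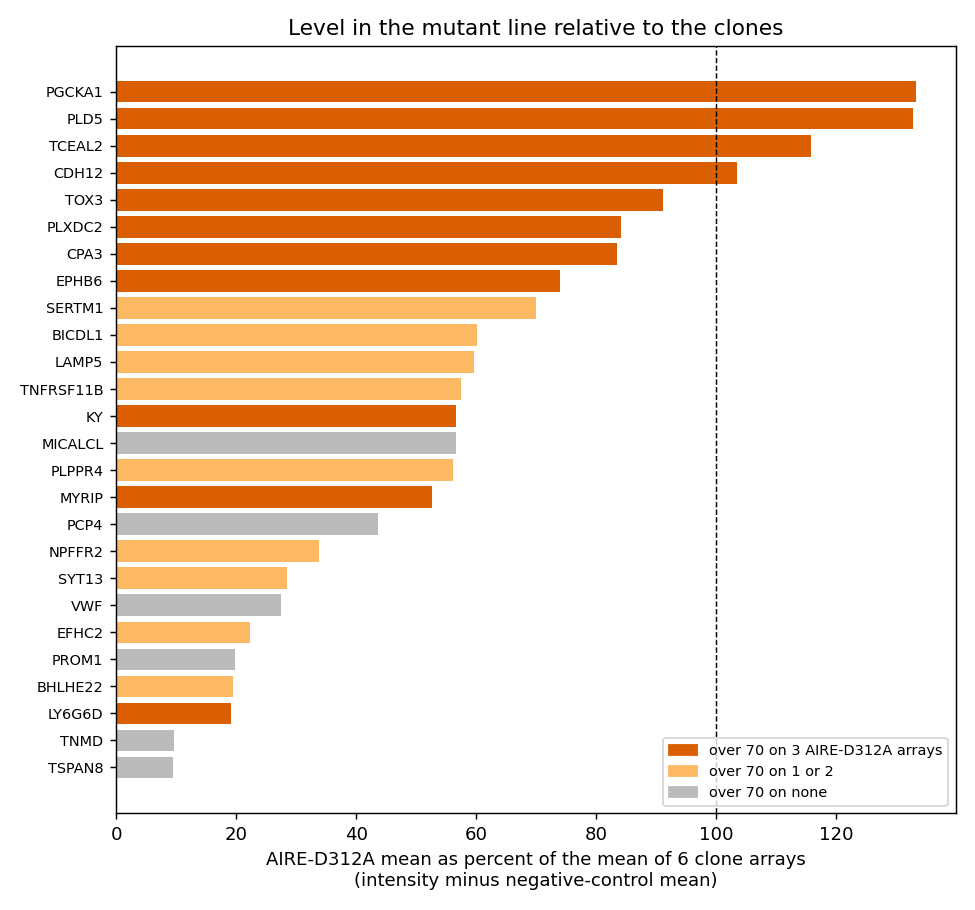
Mean AIRE-D312A signal of each gene as a percentage of the mean over the 6 clone arrays, both after subtraction of the negative-control mean; the dashed line is 100%. Bar colour gives the number of AIRE-D312A arrays over 70; shares run from 133.2% for PGCKA1 to 9.4% for TSPAN8.

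Against NC, 14 of the 26 genes were called higher in AIRE-D312A and 0 lower, where 2.64% of all genes tested were called higher and 1.32% lower. Without AIRE-D312A replicate 1 the count higher was 8, and with an offset of 50 in the background step, in place of 16, it was 9. With the replicate number, taken from the file names, as a block, 19 were higher and 0 lower (8.72% and 7.74% of all genes). The median difference of the 26 was 0.57 log2, against 0.00 over all genes, and at least 0.12 with NC at its detection limit. Against AIRE1, 7 of the 26 were called lower in AIRE-D312A and 0 higher (1.56% and 0.778% of all genes), and the median difference was -0.34. With the block, 12 were lower and 2 higher (5.92% and 3.87% of all genes). Against AIRE2, 10 were called lower and 0 higher (1.34% and 0.879% of all genes), with a median of -0.38; with the block 15 were lower and 3 higher (8.15% and 7.5%). These contrasts share the AIRE-D312A arrays and are given side by side. In raw values, all 3 AIRE-D312A arrays lay above all 3 NC arrays for 18 genes (8.0% of all genes), below all 6 clone arrays for 11 (3.21%) and above all 6 for 0 (0.736%). Raw values include each array's background. Its mean was 52.9 on AIRE-D312A replicate 2, 53.8 on AIRE2 replicate 2 and 55.2 to 57.9 on the other arrays. Overlap of single genes between lines is given below in raw values too.

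By the calls without the replicate block, 11 genes were higher than in NC and not called lower than in either clone. They were CDH12, CPA3, EPHB6, KY, PGCKA1, PLD5, PLPPR4, PLXDC2, SERTM1, TCEAL2 and TOX3. Lower than in both clones were 6, EFHC2, LY6G6D, NPFFR2, TNMD, TSPAN8 and VWF, where 0.611% of all genes were. MYRIP was lower than in AIRE1 alone, and BHLHE22, PCP4, PROM1 and SYT13 than in AIRE2 alone. LY6G6D, MYRIP and SYT13 were both higher than in NC and lower than in a clone. BICDL1, LAMP5, MICALCL and TNFRSF11B passed none of these tests without the block. With the block, MYRIP, BHLHE22, PROM1, SYT13, MICALCL and TNFRSF11B were also called lower than in both clones. KY and LAMP5 were then also lower than in AIRE2. Those then also higher than in NC were BICDL1, LAMP5, NPFFR2, PCP4 and TNFRSF11B.

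**Figure D3:**
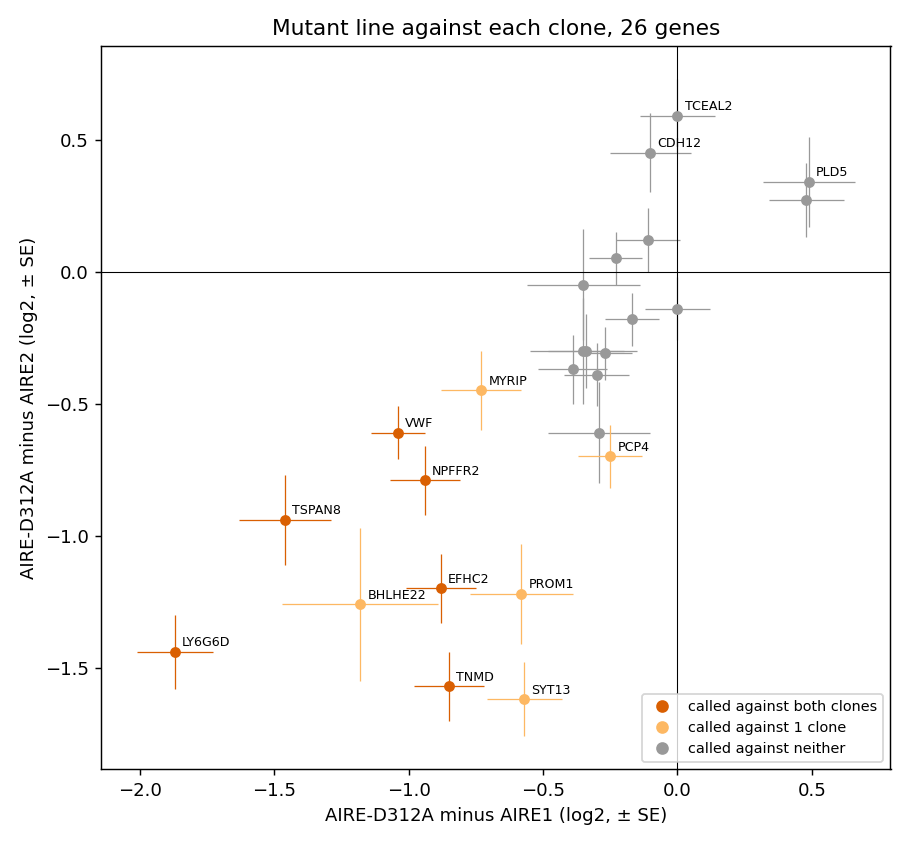
Measured log2 difference of AIRE-D312A minus AIRE1 (x axis) and minus AIRE2 (y axis) for the 26 genes, each a point with bars of ± 1 SE from the fit. The 6 genes called lower than both clones lie to the lower left, and TCEAL2, CDH12, PLD5 and PGCKA1 lie above 0 against AIRE2, with PLXDC2 and TOX3 just above it.

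Promoter sequence was available for 17 of the 26 genes from RefSeq (GRCh38.p14). The 250 bases before the start are printed for the 3 genes with the highest and the 3 with the lowest AIRE-D312A signal relative to the clones among these 17, as both ends of the range. Capitals mark each CG and each TATAAA on the strand shown, 5′ to 3′. PGCKA1 (chr4:37453675-37453924, plus strand), PLD5 (chr1:242524698-242524947, minus) and TCEAL2 (chrX:102125429-102125678, plus) had the highest shares; TSPAN8 (chr12:71158000-71158249, minus), TNMD (chrX:100584686-100584935, plus) and LY6G6D (chr6:31715098-31715347, plus) had the lowest.
PGCKA1: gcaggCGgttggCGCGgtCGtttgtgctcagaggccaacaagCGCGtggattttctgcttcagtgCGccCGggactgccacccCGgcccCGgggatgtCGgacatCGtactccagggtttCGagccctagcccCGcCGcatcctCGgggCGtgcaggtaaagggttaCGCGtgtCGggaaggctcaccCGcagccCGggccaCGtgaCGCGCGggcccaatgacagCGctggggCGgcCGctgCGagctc
PLD5: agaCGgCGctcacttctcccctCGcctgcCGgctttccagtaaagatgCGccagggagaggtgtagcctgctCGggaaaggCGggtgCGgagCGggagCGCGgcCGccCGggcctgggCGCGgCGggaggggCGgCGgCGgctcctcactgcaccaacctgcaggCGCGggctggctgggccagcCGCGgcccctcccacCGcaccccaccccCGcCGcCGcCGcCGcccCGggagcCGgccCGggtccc
TCEAL2: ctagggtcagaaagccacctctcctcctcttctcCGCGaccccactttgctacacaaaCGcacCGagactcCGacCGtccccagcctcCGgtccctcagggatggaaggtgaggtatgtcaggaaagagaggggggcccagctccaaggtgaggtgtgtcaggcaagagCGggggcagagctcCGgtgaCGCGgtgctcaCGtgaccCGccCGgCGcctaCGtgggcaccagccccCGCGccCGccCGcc
TSPAN8: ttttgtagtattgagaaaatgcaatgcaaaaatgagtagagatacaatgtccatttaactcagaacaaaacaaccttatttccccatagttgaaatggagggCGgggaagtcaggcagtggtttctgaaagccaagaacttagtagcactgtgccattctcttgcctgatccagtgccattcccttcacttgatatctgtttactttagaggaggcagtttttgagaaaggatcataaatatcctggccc
TNMD: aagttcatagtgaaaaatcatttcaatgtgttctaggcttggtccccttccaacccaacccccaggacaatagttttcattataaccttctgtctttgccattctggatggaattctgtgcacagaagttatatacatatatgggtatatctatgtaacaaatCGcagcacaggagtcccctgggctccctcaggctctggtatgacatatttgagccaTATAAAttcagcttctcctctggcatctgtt
LY6G6D: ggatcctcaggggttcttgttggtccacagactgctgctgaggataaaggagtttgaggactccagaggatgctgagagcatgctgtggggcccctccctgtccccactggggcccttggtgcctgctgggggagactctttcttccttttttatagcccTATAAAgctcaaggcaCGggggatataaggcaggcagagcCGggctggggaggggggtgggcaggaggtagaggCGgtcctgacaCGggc

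The first 3 sequences hold many CG pairs and the last 3 few. The CpG ratio, observed CG over that predicted from C and G content, was 0.99 for PGCKA1, 0.83 for PLD5 and 0.70 for TCEAL2, against 0.10 for TSPAN8, 0.09 for TNMD and 0.19 for LY6G6D. These 6 are the ends of a ranking chosen after the values were known, and no test was made. PROM1 and EFHC2, also at low shares, had a ratio of 0.66 each, while CPA3, at 83.5% of the clone signal, had 0 and EPHB6, at 74.0%, had 0.22. The ratio exceeded 0.6 in 11 of 17 (64.7%), in 80.5% of 9564 promoters of tested genes and in 47.4% of all 27305 promoters of the table. TATAAA, searched on both strands, was found in TNMD, 31 bases before the start, and LY6G6D, 90 bases before and, on the opposite strand (not in capitals), 100 bases before, thus in 2 of 17 (11.8%), 5.5% of tested-gene promoters and 11.1% of all. CCAAT, on either strand, was in 7 of 17 (41.2%), against 35.6% and 33.0%.

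Grouped by role, a grouping made after the genes were known, the largest group, with 12 genes, encodes surface and other membrane proteins. Of these 12, 7 were called higher in AIRE-D312A than in NC, 4 lower than in AIRE1 and 5 lower than in AIRE2, where 2.64%, 1.56% and 1.34% of all genes tested were. LY6G6D, a lipid-anchored surface protein of the LY6 family, was the brightest of the 26 and read 84.1, 71.4 and 76.8 in AIRE-D312A, 194.2, 191.8 and 180.6 in AIRE1, 167.0, 118.0 and 151.1 in AIRE2, against 62.4, 57.1 and 55.1 in NC. AIRE-D312A lay between NC and the clones with no overlap on either side. The log2 difference was -1.87 ± 0.14 against AIRE1 (± SE, adjusted p = 6.66e-05) and -1.44 ± 0.14 against AIRE2 (adjusted p = 0.000258); AIRE-D312A was at least 1.23-fold higher than NC (adjusted p = 0.00442). Bounds of this kind set a line in which no array detected the gene at its detection limit. Here and below, an adjusted p beside a bound belongs to the measured difference, and the bound itself was not tested.

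TSPAN8, a tetraspanin of epithelial surfaces, read 66.1, 56.0 and 57.5 in AIRE-D312A, 122.2, 94.2 and 104.0 in AIRE1, 92.0, 73.5 and 87.3 in AIRE2, against 53.9, 62.0 and 53.7 in NC. TNMD (tenomodulin), a membrane protein of tendon cells, read 61.1, 57.1 and 61.8 in AIRE-D312A, 78.0, 86.6 and 83.4 in AIRE1, 122.7, 85.9 and 117.8 in AIRE2, against 62.8, 59.5 and 61.0 in NC. Neither was detected on any AIRE-D312A array, and on both the AIRE-D312A values overlapped NC and lay below every clone array. TSPAN8 was at least 2.06-fold lower in AIRE-D312A than in AIRE1 (adjusted p = 0.000893) and at least 1.43-fold lower than in AIRE2 (adjusted p = 0.0174); leaving out AIRE-D312A replicate 2 or 3 or AIRE2 replicate 1 or 3, or an offset of 50, ended the call against AIRE2. TNMD was at least 1.33-fold lower than in AIRE1 (adjusted p = 0.00504) and at least 2.19-fold lower than in AIRE2 (adjusted p = 9.23e-05). Of the 6 fixed fibroblast markers, COL1A2 and THY1 were detected on no array, LUM averaged 62.5 in AIRE-D312A, 74.3 in AIRE1, 69.98 in AIRE2 and 63.6 in NC, and DCN averaged 72.1 in AIRE-D312A, 123.5 in AIRE1, 110.6 in AIRE2 and 72.1 in NC. COL1A1 and PDGFRA were detected on every array: COL1A1 averaged 143.9 in AIRE-D312A, 157.0 in AIRE1, 156.9 in AIRE2 and 159.1 in NC, and PDGFRA 85.4 in AIRE-D312A, 74.4 in AIRE1, 91.0 in AIRE2 and 89.1 in NC. The summed list above background was 84.0 to 173.1 in AIRE-D312A, 134.0 to 251.6 in AIRE1, 75.6 to 283.6 in AIRE2 and 93.5 to 204.7 in NC; its part in the TNMD values was not tested.

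PROM1, the stem cell surface glycoprotein also called CD133, read 65.9, 57.1 and 65.0 in AIRE-D312A, 72.9, 75.4 and 85.5 in AIRE1, 127.0, 76.9 and 95.8 in AIRE2, against 63.3, 61.0 and 64.5 in NC. It was undetected in AIRE-D312A, overlapped NC there, and was highest on AIRE2 replicate 1. It was at least 1.86-fold lower in AIRE-D312A than in AIRE2 (adjusted p = 0.00845); against AIRE1 the difference of -0.58 ± 0.19 did not pass (adjusted p = 0.2), but did with the replicate block (adjusted p = 0.042). NPFFR2, a receptor for neuropeptide FF, read 67.8, 67.8 and 76.2 in AIRE-D312A, 110.6, 98.4 and 101.0 in AIRE1, 103.6, 81.2 and 99 in AIRE2, against 61.8, 60.1 and 59.4 in NC. Every AIRE-D312A value was above NC and below the clones; the differences were -0.94 ± 0.13 against AIRE1 (adjusted p = 0.00264) and -0.79 ± 0.13 against AIRE2 (adjusted p = 0.00963; not called without AIRE-D312A replicate 1). Against NC, 0.49 ± 0.13 did not pass (adjusted p = 0.0622) but did with the block (adjusted p = 0.0143).

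At the other end of the membrane group stood CDH12, PLXDC2, EPHB6 and PLD5. CDH12, a cadherin of the brain, read 120.0, 99.9 and 123.6 in AIRE-D312A, 123.4, 117.4 and 142.4 in AIRE1, 108.3, 79.9 and 104.1 in AIRE2, against 63, 57.3 and 56.8 in NC. Its AIRE-D312A values lay inside the clones' range, at least 2.45-fold above NC (adjusted p = 3.6e-05). Against AIRE1 CDH12 differed by -0.10 ± 0.15 (adjusted p = 0.936) and against AIRE2 by 0.45 ± 0.15, which passed only with the block (adjusted p = 0.16 without and 0.00806 with it). PLXDC2, a plexin-domain receptor, read 110.2, 93.7 and 117.2 in AIRE-D312A, 123.9, 126.8 and 125.8 in AIRE1, 121.1, 91.7 and 109.7 in AIRE2, against 53.1, 54.4 and 55.1 in NC. AIRE-D312A was at least 2.2-fold above NC (adjusted p = 2.45e-06) and overlapped AIRE2, with differences of -0.23 ± 0.10 against AIRE1 and 0.05 ± 0.10 against AIRE2, neither of which passed.

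EPHB6, an ephrin receptor without kinase activity, read 98.2, 74.5 and 101.4 in AIRE-D312A, 112.3, 101.3 and 118.2 in AIRE1, 109.9, 72.8 and 107.9 in AIRE2, against 62.2, 61.5 and 61.1 in NC. It was at least 1.66-fold higher in AIRE-D312A than in NC (adjusted p = 0.00847), a call that was lost without AIRE-D312A replicate 1, and its differences of -0.35 ± 0.21 from AIRE1 and -0.05 ± 0.21 from AIRE2 did not pass. PLD5, a phospholipase D family member, read 111.0, 92.8 and 116.2 in AIRE-D312A, 92.0, 84.8 and 99 in AIRE1, 112.9, 75.8 and 100.6 in AIRE2, against 59.7, 55.2 and 57.5 in NC. Its AIRE-D312A mean was above both clone means, at least 2.18-fold above NC (adjusted p = 0.000159). The differences of 0.49 ± 0.17 from AIRE1 and 0.34 ± 0.17 from AIRE2 passed only with the block (adjusted p = 0.21 and 0.367 without it, 0.00963 and 0.0406 with it).

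The last 3 membrane genes were dimmer. LAMP5, a brain relative of the lysosomal LAMP proteins, read 73.7, 61.8 and 77.8 in AIRE-D312A, 80.9, 80.9 and 79.5 in AIRE1, 87.1, 73.8 and 84.7 in AIRE2, against 61.2, 63.8 and 65.1 in NC. In raw values AIRE-D312A replicate 2 was at the NC level, with a negative-control mean of 52.9 there and 56.6 to 57.8 in NC. The other AIRE-D312A arrays were close to or among the clone values. The difference from NC, 0.37 ± 0.12, and that from AIRE2, -0.39 ± 0.12, passed only with the block (adjusted p = 0.0232 and 0.0187). PLPPR4, a membrane protein of synapses, ranged from 69.9 to 75.3 in AIRE-D312A, 80.7 to 93.2 in AIRE1, 72.3 to 92.1 in AIRE2 and 55.8 to 64.5 in NC. SERTM1 ranged from 65.0 to 71.1 in AIRE-D312A, 72.1 to 74.8 in AIRE1, 71.3 to 74.1 in AIRE2 and 55.2 to 61.4 in NC. Both were called higher in AIRE-D312A than in NC (PLPPR4 0.63 ± 0.13, adjusted p = 0.0177; SERTM1 0.43 ± 0.10, adjusted p = 0.0308), calls that were lost with median centring, with an offset of 50, and without AIRE-D312A replicate 1, AIRE-D312A replicate 2 or NC replicate 3. For SERTM1, leaving out any AIRE1 array or NC replicate 1 also ended the call.

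Among the 3 secreted proteins, 1 was called higher in AIRE-D312A than in NC and 1 lower than in both clones (2.64% and 0.611% of all genes). VWF (von Willebrand factor), a clotting protein of endothelium and platelets, read 65.8, 61.0 and 68.1 in AIRE-D312A, 98.7, 94.4 and 96.2 in AIRE1, 87.7, 71.4 and 82.1 in AIRE2, against 59.4, 58.2 and 61.0 in NC. AIRE-D312A was undetected on all 3 arrays and lay below every clone array. VWF was at least 1.75-fold lower in AIRE-D312A than in AIRE1 (adjusted p = 0.000262) and at least 1.31-fold lower than in AIRE2 (adjusted p = 0.00845; not called with median centring). Of the 4 endothelial markers PECAM1, CDH5 and TEK were detected on no array and KDR on 1 AIRE1 and 1 AIRE2 array, with a summed signal above background of 20.9 to 36.4 in AIRE-D312A, 28.3 to 34.1 in AIRE1, 28.3 to 38.3 in AIRE2 and 24.6 to 28.8 in NC.

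CPA3, a carboxypeptidase of mast cell granules, ranged from 71.0 to 76.6 in AIRE-D312A, 71.2 to 77.0 in AIRE1, 73.4 to 80.4 in AIRE2 and 54.8 to 63.7 in NC. AIRE-D312A overlapped both clones and was called higher than NC, at least 1.09-fold (adjusted p = 0.0115); an offset of 50 and leaving out AIRE-D312A replicate 1, AIRE-D312A replicate 2 or NC replicate 3 each ended this call. None of the 7 leukocyte markers with a probe was detected on any array, and their summed signal was 7.9 to 17.1 in AIRE-D312A, 15.3 to 31.3 in AIRE1, 28.0 to 32.0 in AIRE2 and 15.2 to 35.7 in NC. TNFRSF11B (osteoprotegerin), a decoy receptor for the bone-resorbing cytokine RANKL, ranged from 63.8 to 74.0 in AIRE-D312A, 73.0 to 81.8 in AIRE1, 73.0 to 80.3 in AIRE2 and 57.9 to 64.3 in NC. It passed only with the block, in all 3 contrasts of AIRE-D312A: -0.34 ± 0.14 against AIRE1 (adjusted p = 0.0237), -0.30 ± 0.14 against AIRE2 (adjusted p = 0.0323) and 0.39 ± 0.14 against NC (adjusted p = 0.00884).

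Of 6 genes for vesicle, motor and cytoskeletal proteins, 3 were called higher in AIRE-D312A than in NC, 2 lower than AIRE1 and 2 lower than AIRE2 (2.64%, 1.56% and 1.34% of all genes). SYT13, a synaptotagmin, a family of membrane-trafficking proteins, read 78.0, 62.5 and 83.2 in AIRE-D312A, 92.1, 96.5 and 95.4 in AIRE1, 154.5, 127.2 and 159.2 in AIRE2, against 62.6, 55.3 and 58.5 in NC. AIRE2 was the highest line. In raw values AIRE-D312A overlapped NC on 1 array, replicate 2. The negative-control mean was 52.9 on that array and 56.6 to 57.8 on the NC arrays. The difference from AIRE2 was -1.62 ± 0.14 (adjusted p = 9.23e-05). That from AIRE1 was -0.57 ± 0.14 (adjusted p = 0.0548; 0.0041 with the block). AIRE-D312A was at least 1.11-fold above NC (adjusted p = 0.0151), a call that ended with median centring, with an offset of 50, and without AIRE-D312A replicate 1, AIRE-D312A replicate 3 or NC replicate 3.

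MYRIP, which links the vesicle protein Rab27a to myosin motors, read 103.3, 79.2 and 93.6 in AIRE-D312A, 124.6, 137.7 and 139.2 in AIRE1, 137.2, 92.3 and 114.8 in AIRE2, against 52.8, 52.4 and 50.5 in NC. All AIRE-D312A values were above NC, at least 1.7-fold (adjusted p = 0.000264). They were -0.73 ± 0.15 log2 from AIRE1 (adjusted p = 0.0329; lost without AIRE-D312A replicate 2 or 3, any AIRE1 array, AIRE2 replicate 3 or NC replicate 1) and -0.45 ± 0.15 from AIRE2 (adjusted p = 0.185; 0.027 with the block). The other 3 MYRIP probes stayed between 47.7 and 72.2 on all arrays, so the MYRIP signal rests on 1 of 4 probes. KY, a muscle protein, read 88.8, 73.8 and 91.0 in AIRE-D312A, 102.4, 93.5 and 101.2 in AIRE1, 133.5, 83.8 and 122.7 in AIRE2, against 64.3, 58.5 and 64.7 in NC. AIRE-D312A was at least 1.45-fold above NC (adjusted p = 0.0174; lost with an offset of 50 and without AIRE-D312A replicate 1, AIRE-D312A replicate 3 or NC replicate 1). Differences of -0.29 ± 0.19 from AIRE1 and -0.61 ± 0.19 from AIRE2 did not pass, but the second did with the block (adjusted p = 0.0031). A further probe of KY read 48.3 to 63.7 and one of NPFFR2 57.7 to 74.3, so these signals too rest on 1 of 2 probes.

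EFHC2, a protein with a calcium-binding EF-hand, read 72.0, 58.0 and 65.3 in AIRE-D312A, 89.5, 89.9 and 93.9 in AIRE1, 115.5, 88.6 and 100.3 in AIRE2, against 58.6, 62.5 and 62.4 in NC. AIRE-D312A overlapped NC and lay below every clone array. The differences were -0.88 ± 0.13 from AIRE1 (adjusted p = 0.00389) and -1.20 ± 0.13 from AIRE2 (adjusted p = 0.000582). BICDL1, an adaptor of the dynein motor, read 76.6, 68.7 and 75.7 in AIRE-D312A, 88.0, 94.6 and 78.2 in AIRE1, 82.9, 94.3 and 73.6 in AIRE2, against 65.0, 65.5 and 59.3 in NC. Its AIRE-D312A values were above NC, overlapped AIRE2 and lay below AIRE1; 0.52 ± 0.20 against NC passed only with the block (adjusted p = 0.0271).

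MICALCL read 66.6, 62.2 and 67.4 in AIRE-D312A, 72.5, 73.8 and 71.0 in AIRE1, 72.9, 71.6 and 73.1 in AIRE2, against 62.9, 65.1 and 56.7 in NC. It was undetected in AIRE-D312A, where it lay below the clones. In raw values it overlapped NC there on replicate 2 alone, the array with the lowest negative-control mean. The differences of -0.27 ± 0.10 from AIRE1 and -0.31 ± 0.10 from AIRE2 passed only with the block (adjusted p = 0.0385 and 0.0162). RefSeq now lists this name under MICAL2, whose own probe read at most 71.1 on any array and at most 63.9 in NC.

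The 3 genes for nuclear proteins and the remaining 2 showed both patterns. TOX3, a chromatin protein with an HMG box, read 111.8, 104.5 and 130.9 in AIRE-D312A, 126.4, 131.9 and 130.3 in AIRE1, 132.2, 91.7 and 116.8 in AIRE2, against 57.5, 60.5 and 57.1 in NC. AIRE-D312A overlapped both clones and was at least 2.48-fold above NC (adjusted p = 4.74e-06), with differences of -0.11 ± 0.12 from AIRE1 and 0.12 ± 0.12 from AIRE2 that did not pass. BHLHE22, a neuronal basic helix-loop-helix factor, read 61.1, 62.4 and 75.7 in AIRE-D312A, 98.4, 93.7 and 128.7 in AIRE1, 129.7, 73.0 and 131.2 in AIRE2, against 59.2, 58.4 and 52.6 in NC. In raw values AIRE-D312A replicate 3 overlapped AIRE2 replicate 2, with negative-control means of 57.9 and 53.8 on these arrays. The spread within AIRE2 was wide. BHLHE22 differed by -1.18 ± 0.29 from AIRE1 (adjusted p = 0.063; 0.0059 with the block). It differed by -1.26 ± 0.29 from AIRE2 (adjusted p = 0.0496), a call kept with the block and without AIRE2 replicate 2 and lost under the other alternatives tried.

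TCEAL2, of the transcription elongation factor A-like family, read 109.2, 89.9 and 107.2 in AIRE-D312A, 111.0, 101.1 and 111.6 in AIRE1, 94.6, 70.8 and 85.6 in AIRE2, against 63, 61.0 and 64.1 in NC. On 2 AIRE-D312A arrays it was within the AIRE1 range and above every AIRE2 array. It was at least 2.04-fold above NC (adjusted p = 0.000207) and differed by 0.00 ± 0.14 from AIRE1 and 0.59 ± 0.14 from AIRE2; the second passed only with the block (adjusted p = 0.0619 without and 0.00146 with it). TCEAL2 has close relatives beside it on the X chromosome, and whether its probe also reads them is uncertain.

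PCP4, a small calmodulin regulator of Purkinje cells, read 67.8, 64.3 and 66.3 in AIRE-D312A, 74.5, 70.1 and 74.4 in AIRE1, 88.2, 73.2 and 93.8 in AIRE2, against 56.5, 62.4 and 53.5 in NC. AIRE-D312A was undetected, above NC and below the clones. PCP4 was at least 1.45-fold lower in AIRE-D312A than in AIRE2 (adjusted p = 0.0117; lost without AIRE-D312A replicate 1, AIRE-D312A replicate 3 or AIRE2 replicate 3), and -0.25 ± 0.12 against AIRE1 did not pass (adjusted p = 0.455). Against NC 0.37 ± 0.12 passed only with the block (adjusted p = 0.0462). PGCKA1, the gene with the highest share, read 93.0, 87.7 and 96.7 in AIRE-D312A, 86.1, 85.4 and 71.3 in AIRE1, 94.2, 74.0 and 89.4 in AIRE2, against 61.9, 59.9 and 60.2 in NC. AIRE-D312A was at least 1.73-fold above NC (adjusted p = 0.000349). It differed by 0.48 ± 0.14 from AIRE1 (adjusted p = 0.122; 0.0253 with the block) and by 0.27 ± 0.14 from AIRE2 (adjusted p = 0.407).

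The rule asks the same of both clones and does not use their difference, but a gene low in either clone cannot be a member. The counts called between the clones thus rest on values the rule restricted, unlike the shares over all genes beside them. Of the 26 genes, 1 was called higher in AIRE1 than in AIRE2 (1.28% of all genes tested) and 2 lower (1.02%). With the replicate block 6 were higher and 4 lower (7.49% and 5.84%): CDH12, LY6G6D, PLXDC2, TCEAL2, TSPAN8 and VWF, and PCP4, PROM1, SYT13 and TNMD. SYT13 averaged 94.7 ± 2.33 in AIRE1 and 147.0 ± 17.3 in AIRE2 (SD, n = 3 arrays each), a log2 difference of -1.06 ± 0.14 (adjusted p = 0.00195) with no overlap between the clones. TNMD averaged 82.7 ± 4.35 in AIRE1 and 108.8 ± 20.02 in AIRE2, a difference of -0.72 ± 0.13 (adjusted p = 0.0155); the call was lost with median centring (-0.66) and without AIRE1 replicate 1 or 3 or AIRE2 replicate 1 or 3. VWF averaged 96.4 ± 2.15 in AIRE1 and 80.4 ± 8.3 in AIRE2, a difference of 0.43 ± 0.10 (adjusted p = 0.0447) whose call was lost when any 1 of the 12 arrays was left out, with median centring and with an offset of 50. Raw means were higher in AIRE1 for 14 of the 26.

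AIRE transcript level and the readings of AIRE2 replicate 2 are set beside these values. AIRE was -0.59 ± 0.18 log2 in AIRE-D312A relative to AIRE1 (adjusted p = 0.141; 0.0212 with the block) and -0.20 ± 0.18 relative to AIRE2 (adjusted p = 0.67). AIRE2 replicate 2 had the lowest AIRE reading of the 6 clone arrays, and after background subtraction it was the lowest AIRE2 array for 22 of the 26 genes, against 51.9% of all genes tested. The median signal of the 26 genes above background was 21.5 there, against 48.2 and 39.9 on the other AIRE2 arrays. Without that array the count lower in AIRE-D312A than in AIRE2 was 13 in place of 10. The part of AIRE level in the difference between AIRE-D312A and the clones was not tested.

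**Figure D4:**
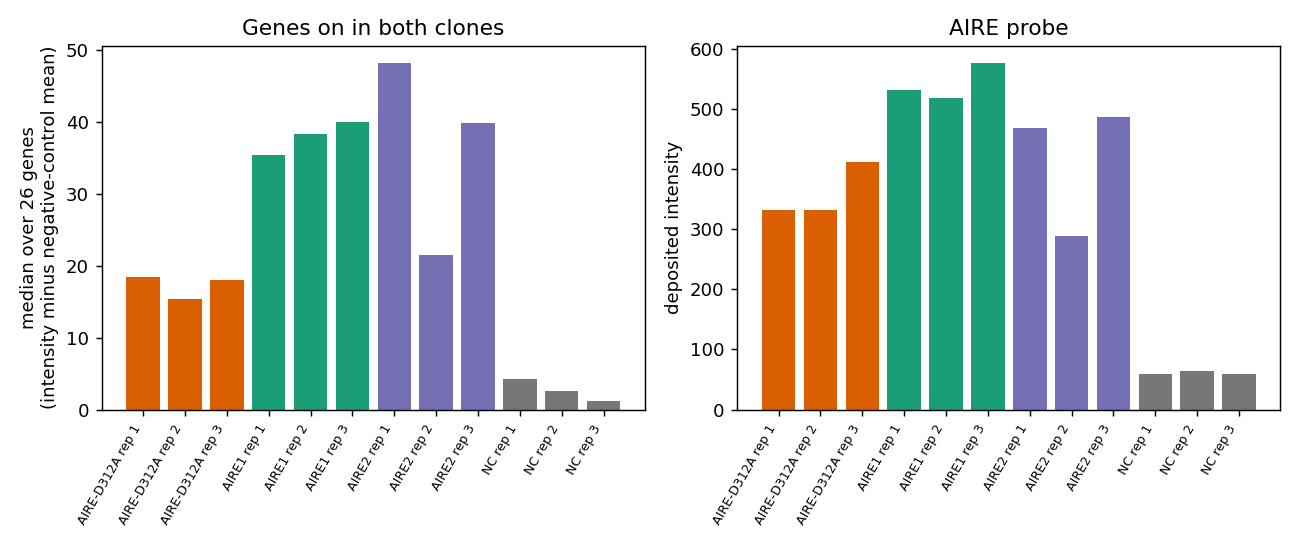
Left, median over the 26 genes of intensity minus the negative-control mean on each of the 12 arrays. Right, deposited intensity of the brighter AIRE probe on the same arrays. AIRE2 replicate 2 is the lowest clone array in both panels, and the AIRE-D312A medians of 15.3 to 18.4 lie between those of the clones (21.5 to 48.2) and of NC (1.1 to 4.3).

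Neighbouring genes were examined for the 25 members placed on the GRCh38.p14 gene order. Of the 50 nearest tested genes, 1 on each side, 7 (14.0%) were called higher than NC in both clones, against 3.66% of all genes tested. They were IGSF5 beside PCP4, FGFBP1 beside PROM1, CCNA1 (one of the genes left out by name) beside SERTM1, ARMCX2 and BEX5 on either side of TCEAL2, MAL2 beside TNFRSF11B and ANO2 beside VWF. With 3 genes on each side the count was 12 of 150 (8.0%). In AIRE-D312A the neighbours did not always read as the member did: FGFBP1 was 1.81 log2 above NC, where PROM1 was 0.01, while ANO2 was at 0.10 and VWF at 0.25.

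Profiles most like those of the 3 brightest genes over the 12 arrays were AKR1C4 for LY6G6D (Pearson r = 0.975), C1GALT1C1 for MYRIP (0.983) and AIRE for TOX3 (0.992). These describe 12 points that share 4 lines, and carry no p. The rule itself made the 3 genes low in NC and high in both clones. A high correlation with genes that share this step, AIRE among them, follows from that choice. Near the thresholds, the lowest clone value was 70.1 for PCP4, 70.8 for TCEAL2 and 71.0 for MICALCL, and the highest NC value was 65.1 for LAMP5 and MICALCL and 65.5 for BICDL1. Just outside lay XAGE1A, VPS9D1 and TMC5, with lowest clone values of 68.8, 69.8 and 69.9, and F5, SLC9A2 and MGAT4C, with highest NC values of 66.2, 66.2 and 66.3. In the authors' deposited table, with 1 value per line, AIRE-D312A was above NC for 24 of the 26, below AIRE1 for 24, below AIRE2 for 22 and below both clones for 22. Choosing low NC and high clone values favours these directions, and they were not counted over all genes. The column medians of that table were 3.73 for AIRE-D312A, 3.89 for AIRE1, 4.12 for AIRE2 and 4.02 for NC, with the setting of its scale not given in the sources used here.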

How the data were processed

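RNA of 4 stable HEK293 lines was labelled as cRNA and read on Illumina bead arrays, 3 per line. Each deposited array file holds, per the file headers, 1 linear intensity per probe, seen from its values to be neither background-subtracted nor normalised, and a detection p-value. A further deposited table gives 1 intensity per probe and line and was used only as an alternative, without a test. Per the submitters' processing notes, BeadStudio 3.1.3.0 was used. The detection p-values deposited for AIRE-D312A replicate 3 were 100% equal to those of AIRE1 replicate 3 and were not used. The limits of that array were predicted from its 40th percentile, a method that gave 98.9 to 100% of detection calls alike on the other 11 arrays. Its intensities were used.

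Intensities were corrected by normexp (offset 16, negative-control mean and SD inferred from the detection p-values), quantile-normalised and log2-transformed (limma 3.58.1, R 4.3.3). A fold change is thus on the scale of log2 of the corrected value plus 16, which understates changes of dim genes. A probe was kept if every array of some line detected it (p under 0.01); the brightest probe stood for its gene, which left 11949 genes. One limma fit of all 12 arrays gave the contrasts, with Benjamini-Hochberg adjustment over all genes and calls at 0.05. The fits were tested on simulated data. Alternatives were a replicate block, median centring, an offset of 50, no detection filter, all probes separately, each array left out, and other thresholds.

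Replicate numbers come from the names of the deposited files. Deviations from line means correlated at 0.333 to 0.848 over the 18 pairs of arrays with the same number, and at -0.744 to 0.529 over the 36 pairs with different numbers, so the numbers pair the arrays. Median centring moved the median of all genes for AIRE1 minus NC by 0.136 log2.

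The genes, role groups and tests were chosen with earlier results of these data known. Every member was named; readings on all 12 arrays were given for the 12 brightest in the clones, the 6 highest and 6 lowest in AIRE-D312A relative to the clones, those called between the clones, and the 3 just inside each threshold. Probe names came from the platform's annotation, with 24154 of 24782 named probes matched to RefSeq (GRCh38.p14). Promoters were not used for the 9 members without an entry.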

Additional observations from a re-analysis of the deposited data

Results flagged for a closer look

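SYT13, TNMD and VWF were picked out because the rise over NC differed between the clones by the direct test of AIRE1 minus AIRE2. The log2 difference was -1.06 for SYT13, which was lower in AIRE1, -0.72 for TNMD, also lower in AIRE1, and 0.43 for VWF, which was higher in AIRE1. The SYT13 difference passed under every alternative tried, while those for TNMD and VWF did not.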

How the results depend on the processing

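Of 578 recalculated values for called gene differences, 499 kept direction and call, 79 kept direction and lost the call, and 0 reversed; with the replicate block 34 of 34 kept the call. The block moved the count higher than in NC to 19, the count lower in AIRE-D312A than in AIRE1 to 12 and the count higher to 2, the count higher than in AIRE2 to 3, and the calls between the clones to 10; it changed no call other than those given beside the results. An offset of 50 left 9 genes higher than NC, and median centring left 1 called between the clones. Leaving out each array gave 8 to 16 higher than NC (8 without AIRE-D312A replicate 1), 6 to 9 lower than AIRE1, 7 to 13 lower than AIRE2 and 1 to 4 between the clones. The rule itself gave 7 genes at thresholds of 63 and 80, 82 with detection p-values in place of thresholds, and 26 to 57 with an array left out (57 without AIRE2 replicate 2, 45 without NC replicate 1). Genes over 80 on all AIRE-D312A arrays numbered 6, neighbours called with 3 on each side 12, and promoters with a CpG ratio over 0.75 numbered 4. The cause of these changes was not tested. The authors' table, with 1 value per line, gave no calls. The 26 genes lie close to background, which limits every fold.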
